A study of Rattus norvegicus with 12 samples.

Results

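Mdm2, Mdm4, Ppm1d and Rchy1 encode proteins that hold the tumour suppressor p53 in check, and their transcripts were followed through 4 groups of a rat beta-cell line. The genes were taken from the deposited count table by their symbols, 4 of the 31368 gene names it holds. The cells were INS-1 832/3, a rat insulinoma line that secretes insulin and is labelled wild type. They received urolithin B (50 uM, 12 h) and then islet amyloid polypeptide (IAPP, 2 uM, 24 h), IAPP alone (2 uM, 24 h), urolithin B alone (50 uM, 12 h), or no treatment (control). All were grown in RPMI medium with serum. The species of the IAPP is not stated, and neither is how long urolithin B cells stayed in culture after the 12 h. Urolithin B is a gut microbial metabolite of ellagitannins, and IAPP is a peptide released by beta cells together with insulin that can aggregate into amyloid. Each group had 3 libraries, made from poly(A) tails with a kit that reads near the transcript end.

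The transcription factor p53 is made continuously and destroyed continuously. Mdm2 is the ubiquitin ligase that marks it for the proteasome, and Mdm4, a related protein with little ligase activity of its own, binds p53 and pairs with Mdm2. Rchy1 (also called Pirh2) is a further ubiquitin ligase for p53, and Ppm1d (also called Wip1) is a phosphatase that removes activating phosphates from p53 and from the kinases above it. In mouse and human cells p53 switches on Mdm2, Ppm1d and Rchy1, which closes negative feedback loops. In beta cells p53 is known for its part in cell cycle arrest and apoptosis under stress.

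Library totals ran from 4828003 to 6681455 counts. The 4 libraries numbered replicate 1 stood apart from the other 8, with 22139 to 22615 genes detected against 19529 to 20201, so values within each replicate number are given below. All 10 beta-cell markers examined had counts in every library, although Iapp itself was listed at 0 in all 12. CPM values here are counts scaled to the sum over the tested genes of a library times its TMM factor. Of 14 markers of other cell types, Sst, Ppy and Col1a2 were at 0 in all 12 libraries, and Gcg ran from 18.5 to 211 CPM. A listed 0 may not mean absence in this count table, as set out for Ppm1d below. The 13 without Gcg summed to 29.4 to 92.5 CPM in urolithin B + IAPP, 38.4 to 122 CPM in IAPP, 31.7 to 64.7 CPM in urolithin B and 37.7 to 83.7 CPM in control libraries, with replicate 1 the highest in each group. Their part in the results below was not tested. In bulk RNA a change in the number of cells of a type and a change in RNA per cell cannot be told apart.

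Mdm2 was the 1 member called in the edgeR fit, higher after IAPP and lower again where urolithin B came first. It stood at 60.2, 62.3 and 62.2 CPM in the 3 urolithin B + IAPP libraries and at 215, 153 and 179 CPM in the IAPP libraries. Urolithin B alone gave 66.5, 59.7 and 45.3 CPM, and control 55.9, 48.8 and 49.0 CPM. The lowest IAPP library thus lay above the highest of the other 9 libraries. The counts behind these values were 677 to 1337 in IAPP libraries and 233 to 384 in the other groups.

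**Figure D1:**
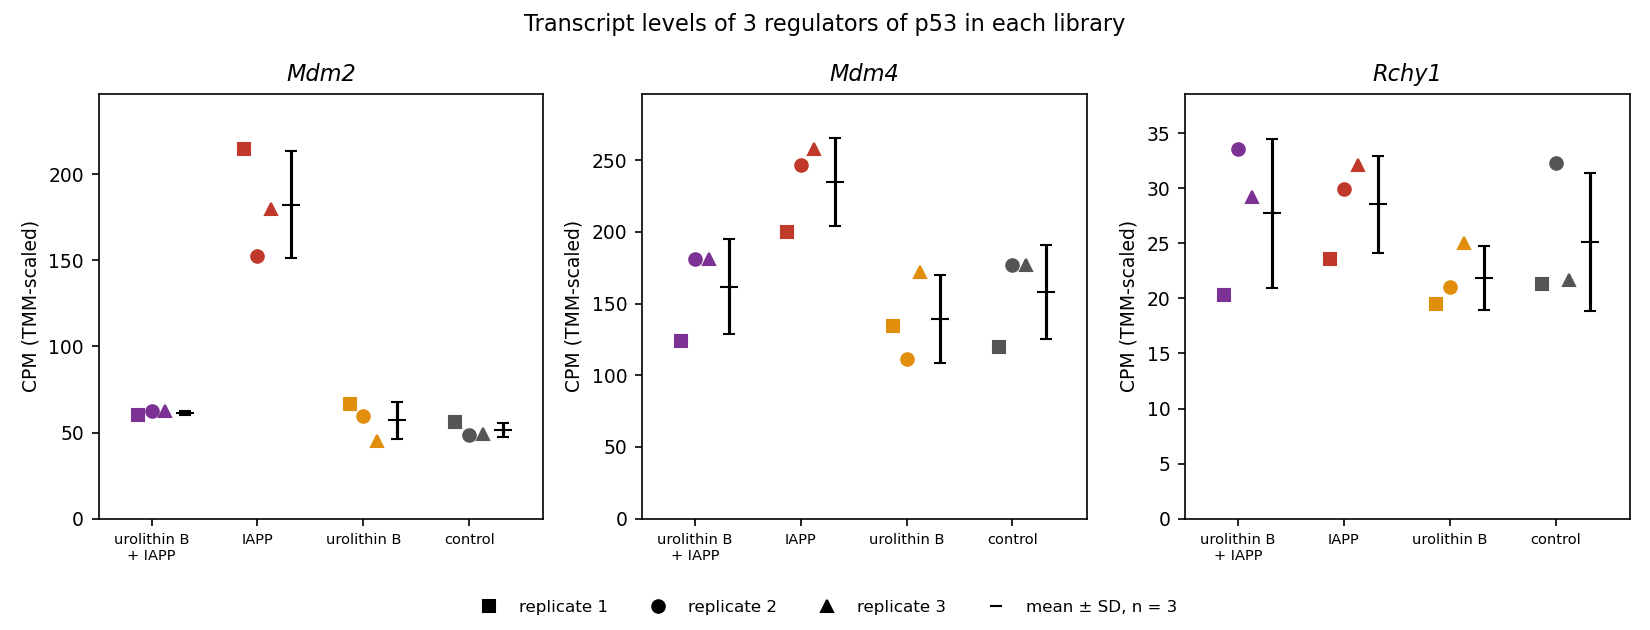
Transcript levels of Mdm2, Mdm4 and Rchy1 in each of the 12 libraries, in CPM on axes that start at 0, by group, with marker shapes for the replicate number and bars for the mean ± SD (n = 3). The 3 IAPP libraries sit between 153 and 215 CPM for Mdm2, above all others, while the Rchy1 groups overlap.

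The 250 bases before the annotated start of Mdm2 (GRCr8 chr7:55200792-55201041, minus strand) are printed because Mdm2 is the member whose change passed the test. The sequence is from RefSeq, 5′ to 3′, and capitals mark the GC box, GGGCGG, here on the opposite strand.
Mdm2: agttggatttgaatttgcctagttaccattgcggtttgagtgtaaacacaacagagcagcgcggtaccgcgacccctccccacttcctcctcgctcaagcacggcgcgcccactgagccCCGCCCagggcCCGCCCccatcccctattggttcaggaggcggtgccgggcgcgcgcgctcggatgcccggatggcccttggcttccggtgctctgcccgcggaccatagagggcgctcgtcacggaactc
It held 2 GC boxes, and 30.5% of 33469 windows of the same length held at least 1 on either strand. The p53 response-element decamer, searched on both strands, was in none of the windows of the 4 members and in 6.64% of all windows. In mouse and human the p53-responsive promoter of Mdm2 lies within the first intron. The start used here lies 966 bases inside the RefSeq record of the gene, and where the window lies relative to the introns was not determined.

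The first comparison asked what IAPP did to these regulators in otherwise untreated cells. Mdm2 averaged 182 ± 31.1 CPM in IAPP cells and 51.2 ± 4.05 CPM in control (SD, n = 3 each), a fitted 3.55-fold rise. Its log2 fold change was 1.83 ± 0.16 (SE, 95% interval 1.48 to 2.18), with an edgeR adjusted p = 0.000452. Within replicate numbers 1, 2 and 3 the change was 1.94, 1.65 and 1.87 on the log2 scale, so the libraries that stood apart gave a change of similar size. Replicates 2 and 3 alone gave 1.76 (edgeR adjusted p = 7.31e-07). By p-value Mdm2 ranked 3 among 16814 tested genes, and by size of rise it ranked 40. The call held without each of the 12 libraries in turn, with log2 fold changes between 1.69 and 1.94.

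Mdm4 was higher in every IAPP library than in any control library, but by less. It was at 200, 247 and 258 CPM in IAPP cells, against 120, 177 and 177 CPM in control. The group means were 235 ± 30.6 CPM in IAPP and 158 ± 32.9 CPM in control cells (SD, n = 3 each). The log2 fold change of 0.57 ± 0.21 (SE, 95% interval 0.11 to 1.04) did not pass over all genes (edgeR adjusted p = 0.331). The replicate 1 library was the lowest of its group in both, and within replicate numbers the change was 0.74, 0.48 and 0.54. With replicate number entered as a block the change was 0.58 ± 0.12 and passed (edgeR adjusted p = 0.00255), as it did without each library in turn. Replicates 2 and 3 alone gave 0.51, with an edgeR adjusted p = 0.0547, and 0.045 with the block. Groups that do not overlap in the higher direction were found for 7.74% of all tested genes.

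Rchy1 showed overlapping groups. It was at 23.6, 29.98 and 32.1 CPM in IAPP cells and at 21.3, 32.3 and 21.7 CPM in control. The log2 fold change of 0.18 ± 0.22 (SE) did not pass (edgeR adjusted p = 0.972), and its 95% interval ran from -0.30 to 0.67. The counts for Rchy1 were 103 to 171 per library.

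Of the 3 members that could be tested, 1 was called higher after IAPP and 0 lower, where 0.547% of all tested genes were called higher. With the replicate block 2 of 3 were called higher, against 3.78% of all genes. The members are too few for their share to be set against these percentages as a rate.

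Ppm1d had 0 counts in every one of the 12 libraries and could not be tested. A count of 0 allows up to 3 counts, or 0.463 to 0.683 CPM depending on the library, and covers counting error only. Fth1 and Capns1, which encode ferritin heavy chain and the small calpain subunit and are expressed in most cells, were likewise at 0 in all 12, as were 6757 gene names altogether. They were looked up after the Ppm1d values were seen. The RefSeq annotation also holds LOC134480843, a protein-coding record that shares 36005 bases with Ppm1d and has no row in the table. The table thus assigned no read to Ppm1d, and its expression in these cells could not be measured here.

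The second comparison asked how the regulators stood when urolithin B had been given before IAPP. Mdm2 averaged 61.6 ± 1.19 CPM in urolithin B + IAPP cells and 182 ± 31.1 CPM in IAPP cells (SD, n = 3 each). The log2 fold change was -1.57 ± 0.16 (SE, 95% interval -1.91 to -1.22), with an edgeR adjusted p = 0.00205. It ranked 4 of 16814 genes by p-value. Within replicate numbers 1, 2 and 3 the log2 change was -1.83, -1.29 and -1.53. Replicates 2 and 3 alone gave -1.43 (edgeR adjusted p = 9.6e-06). The call held without each of the 12 libraries in turn, with values from -1.67 to -1.43. With library size alone as the scaling the change was -1.64, and it no longer passed (edgeR adjusted p = 0.0796).

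The 3 urolithin B + IAPP libraries were the closest together of any group for Mdm2, with a coefficient of variation of 1.94%. That of the 3 IAPP libraries was 17.1%. The urolithin B + IAPP counts were 297 to 379, at which counting error alone gives on average more spread than 1.94%. In addition, 3 libraries measure a spread poorly. The closeness is therefore not read as a trait of the group. The difference in spread was not tested. Replicate 1, the highest of the IAPP libraries, was the lowest of the urolithin B + IAPP libraries.

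For Mdm4 the urolithin B + IAPP libraries had 124, 181 and 181 CPM, against 200, 247 and 258 CPM in IAPP libraries. All 3 urolithin B + IAPP libraries lay below all 3 IAPP libraries, as did 6.84% of tested genes. The log2 fold change was -0.54 ± 0.21 (SE, 95% interval -1.0 to -0.07) and did not pass (edgeR adjusted p = 0.485). With the replicate block it was -0.55 ± 0.12 and passed (edgeR adjusted p = 0.00637). That call ended without IAPP replicate 2, urolithin B + IAPP replicate 1 or urolithin B + IAPP replicate 3, with adjusted p-values of up to 0.0669.

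For Rchy1 the urolithin B + IAPP libraries had 20.3, 33.6 and 29.2 CPM, and the IAPP libraries 23.6, 29.98 and 32.1 CPM. The log2 fold change was -0.04 ± 0.22 (SE, edgeR adjusted p = 0.999), with a 95% interval from -0.52 to 0.44. In this comparison 1 of 3 tested members was called lower and 0 higher, against 0.422% of all genes called lower. With the block 2 were called lower, against 2.73%. Because the first and second comparisons use the same IAPP libraries, the opposite signs of a member in them are not independent of each other.

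Whether the IAPP effect itself differed with urolithin B was tested as an interaction, the IAPP effect in urolithin B-treated cells minus that in cells without urolithin B. For Mdm2 the interaction was -1.72 ± 0.22 on the log2 scale (SE, 95% interval -2.21 to -1.24), with an edgeR adjusted p = 0.0348. Only 5 genes, 0.0297% of those tested, passed this test, all with a lower IAPP effect after urolithin B. They were Cdkn1a (-2.98 ± 0.23), Zmat3 (-1.25 ± 0.15), Mdm2, Il15 (-1.22 ± 0.17) and Aen (-1.20 ± 0.17), named because they were so few. Without any 1 of the 12 libraries the count was 1 to 2 genes. Cdkn1a, Zmat3 and Aen are known p53 targets in mouse and human.

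In replicate numbers 1, 2 and 3 the Mdm2 interaction was -2.08, -1.58 and -1.41. Its call was sensitive to the libraries. It passed without urolithin B replicate 3 or IAPP replicate 2, and did not pass without any 1 of the other 10, where the adjusted p reached 0.206. Over all 12 such fits the value ran from -1.86 to -1.58. With the replicate block the adjusted p was 6.45e-07, and it stayed at 1.14e-05 or less without each library. Replicates 2 and 3 alone gave -1.55 (edgeR adjusted p = 0.000669). Library size alone as scaling gave -1.78, which did not pass (edgeR adjusted p = 0.617).

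The Mdm4 interaction was -0.36 ± 0.30 (SE, 95% interval -1.01 to 0.30, edgeR adjusted p = 1.00). With the block it was -0.38 ± 0.17 and still did not pass (edgeR adjusted p = 0.330). In that fit it passed at -0.59 without urolithin B replicate 2 (edgeR adjusted p = 0.00436), and did not pass without any 1 of the other 11. For Rchy1 it was 0.16 ± 0.31 (SE, 95% interval -0.52 to 0.84, edgeR adjusted p = 1.00). The block gave the same side of the threshold for Rchy1 (edgeR adjusted p = 0.844).

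**Figure D2:**
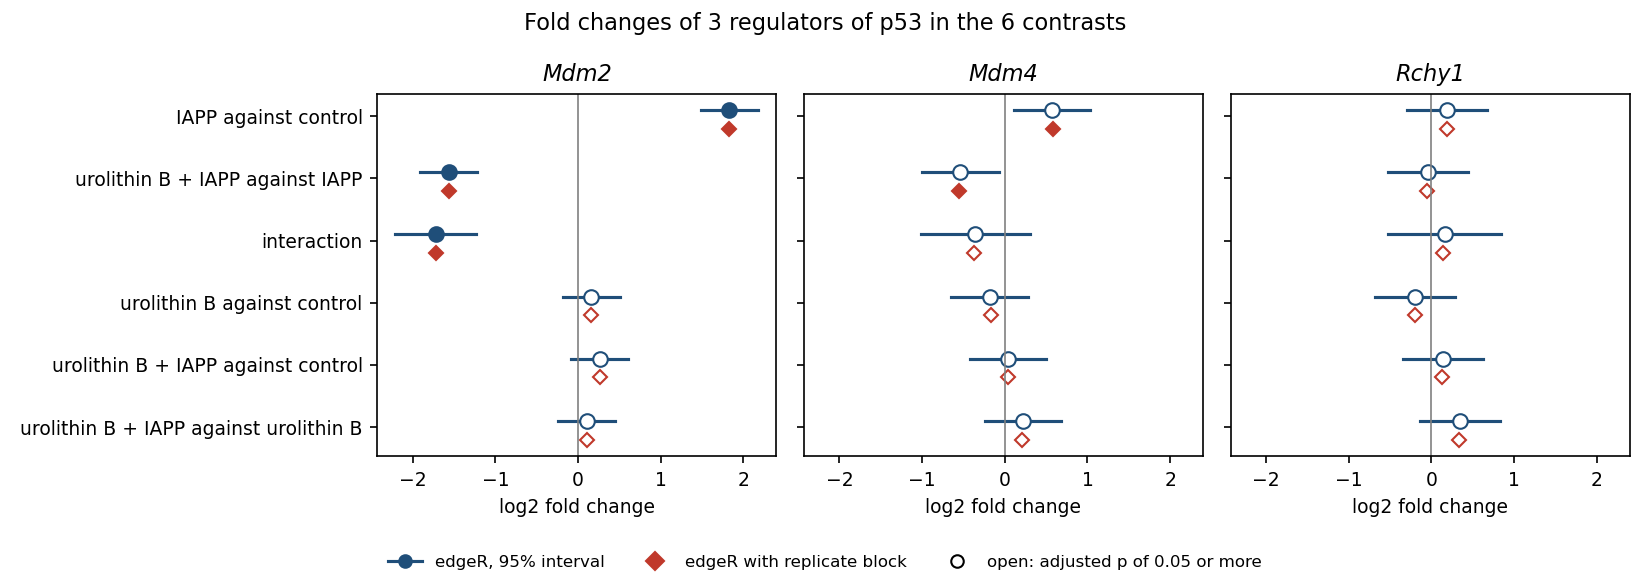
Log2 fold changes of Mdm2, Mdm4 and Rchy1 in the 6 contrasts, with circles and 95% intervals from edgeR and diamonds from the fit with the replicate block. Filled symbols have an adjusted p under 0.05. Mdm2 reached this at 1.83, -1.57 and -1.72 without the block and at 1.83, -1.56 and -1.71 with it. Mdm4 reached it at 0.58 and -0.55 with the block.

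Urolithin B without IAPP was compared with control to ask whether it moved these genes on its own. Mdm2 averaged 57.2 ± 10.8 CPM in urolithin B cells and 51.2 ± 4.05 CPM in control, a log2 fold change of 0.16 ± 0.16 (SE, 95% interval -0.19 to 0.50). Mdm4 averaged 139 ± 30.5 CPM in urolithin B cells and 158 ± 32.9 CPM in control, a change of -0.18 ± 0.21 (SE, 95% interval -0.65 to 0.28). The 3 urolithin B libraries for Mdm4 were at 134, 111 and 172 CPM, with replicate 2 the lowest. Rchy1 averaged 21.8 ± 2.89 CPM in urolithin B cells and 25.1 ± 6.26 CPM in control, a change of -0.20 ± 0.22 (SE, 95% interval -0.69 to 0.28). The groups overlapped for all 3 genes, where 4.48% of all genes had groups apart. Of the 3, 0 had an unadjusted p under 0.05 in the edgeR fit, and edgeR (0% of all genes), DESeq2, limma-voom and the block (0.00595% of all genes) called 0.

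The combined treatment was also set against control and against urolithin B alone. Against control Mdm2 averaged 61.6 ± 1.19 CPM in urolithin B + IAPP cells and 51.2 ± 4.05 CPM in control cells (SD, n = 3 each). Its lowest urolithin B + IAPP library, at 60.2 CPM, lay above the highest control library, at 55.9 CPM, which was so for 3.79% of tested genes. The log2 fold change of 0.26 ± 0.16 (SE, 95% interval -0.08 to 0.61) did not pass (edgeR adjusted p = 1.00, and 0.606 with the block). Mdm4 had a change of 0.04 ± 0.21 (SE), with the replicate numbers at 0.05, 0.03 and 0.03. With library size alone it was -0.09, so that its sign was not settled. Rchy1 had 0.14 ± 0.22 (SE), with groups that overlapped, and about 0 with library size alone (-0.0019).

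Against urolithin B alone the combined treatment gave 0.11 ± 0.16 for Mdm2 (SE, 95% interval -0.24 to 0.45). With library size alone this value was -0.0039. Mdm4 had 0.22 ± 0.21 (SE) and Rchy1 0.34 ± 0.22 (SE, 95% interval -0.14 to 0.82). The groups overlapped for all 3 genes, where 5.43% of all genes had groups apart. In both comparisons 0 of 3 members were called by edgeR, DESeq2, limma-voom or the block, and 0 had an unadjusted p under 0.05 in the edgeR fit without the block. With the block the unadjusted edgeR p was 0.037 for Mdm2 against control and 0.0406 for Rchy1 against urolithin B. Of all genes edgeR called 0% in both, and the block called 0.0714% against control and 0.0119% against urolithin B.

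By mean level Mdm2 was ordered IAPP, urolithin B + IAPP, urolithin B and control, and 0 differences among the last 3 passed in any of the fits run. Mdm4 ran IAPP, urolithin B + IAPP, control and urolithin B, and Rchy1 ran IAPP, urolithin B + IAPP, control and urolithin B. For Rchy1 no step between neighbours in that order passed. For Mdm4 the step between IAPP and urolithin B + IAPP passed with the block, and the others did not.

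The balance of Mdm2 to the other members was read as a ratio of counts within each library, which does not depend on depth or scaling. For each Mdm4 count there were 0.487, 0.345 and 0.344 Mdm2 counts in the urolithin B + IAPP libraries and 1.07, 0.619 and 0.696 in the IAPP libraries. Urolithin B libraries had 0.495, 0.536 and 0.264, and control libraries 0.466, 0.276 and 0.277. All IAPP libraries lay above all others, and replicate 1 was the highest library in 3 of the 4 groups.

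The Mdm2 to Mdm4 ratio was 2.35-fold higher in IAPP than in control cells, on the geometric mean. Urolithin B + IAPP cells had 0.50 of the ratio in IAPP cells. An exact two-sided permutation test gave p = 0.1 for each, the smallest that 3 against 3 libraries allow, and 0.25 after adjustment over 10 such comparisons. That test does not use the replicate numbers. Within replicate numbers 1, 2 and 3 the log2 ratio differed by 1.20, 1.16 and 1.33 between IAPP and control, and by -1.14, -0.84 and -1.01 between urolithin B + IAPP and IAPP. An exact sign-flip permutation test over these 3 differences gave p = 0.25 for each, the smallest that 3 pairs allow.

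Mdm2 to Rchy1 gave 2.96, 1.86 and 2.13 in urolithin B + IAPP libraries and 9.10, 5.09 and 5.60 in IAPP libraries. It was 3.42, 2.84 and 1.81 in urolithin B libraries and 2.62, 1.51 and 2.26 in control. The IAPP libraries were again all above the others. The ratio was 3.07-fold higher in IAPP than in control cells, and in urolithin B + IAPP cells it was 0.36 of that in IAPP cells (exact permutation p = 0.1 each, adjusted p = 0.25). Within replicate numbers its log2 differences were 1.79, 1.75 and 1.31 between IAPP and control, and -1.62, -1.45 and -1.39 between urolithin B + IAPP and IAPP (exact sign-flip permutation p = 0.25 each). The other 6 ratio comparisons had overlapping groups, with exact permutation p-values from 0.4 to 0.8. Unequal change is what these ratios show, and they do not show that Mdm4 or Rchy1 stayed constant.

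**Figure D3:**
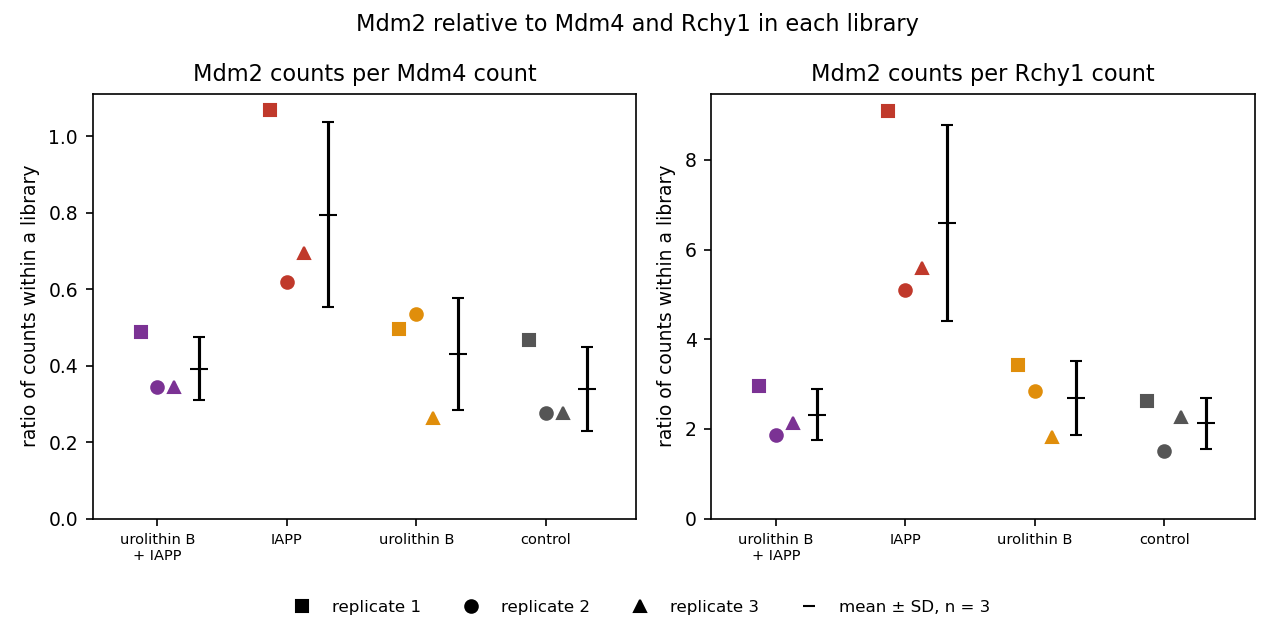
Counts of Mdm2 per count of Mdm4 (left) and of Rchy1 (right) within each library, by group, with marker shapes for the replicate number and bars for the mean ± SD (n = 3). The IAPP libraries lie at 0.619 to 1.07 for Mdm4 and 5.09 to 9.10 for Rchy1, above all other libraries.

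The Mdm4 counts carry a limit of position. In the RefSeq annotation of GRCr8, Mdm4 on the minus strand overlaps Lrrn2 on the plus strand where both genes end, and a 3prime library reads that end. Whether the authors' counting used strand is not given in the sources used here, so reads of the pair may not be separated. Lrrn2 itself was at 63.2 to 117 CPM and had a log2 fold change of 0.08 ± 0.28 (SE) in IAPP against control and -0.07 ± 0.28 in urolithin B + IAPP against IAPP, with edgeR adjusted p = 1.00 and 0.999. Pik3c2b, whose record also overlaps that of Mdm4, was at 7.47 to 23.8 CPM and had 0.47 ± 0.38 and -0.31 ± 0.38 in the same comparisons (edgeR adjusted p = 0.861 and 0.999). The share of the Mdm4 change due to these neighbours was not tested. Thap6 overlaps the start of Rchy1, away from the end that was read.

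The regulators were set beside 4 lists of pathway genes, written from knowledge of p53 in mouse and human. Of 30 genes induced by p53, 27 were tested, and 12 rose after IAPP while 0 fell, where 0.547% of all genes rose. Their median log2 fold change was 0.69, against 0.05 for all tested genes, and 6 of the 27 had a larger value than Mdm2. With the block 16 rose, against 3.78% of all genes. With replicates 2 and 3 alone 14 rose, in a fit that called 2.43% of 14715 genes higher. The smallest p-values belonged to Cdkn1a (the cell cycle inhibitor p21), Zmat3 (an RNA-binding protein), Btg2 (an antiproliferative protein) and Bbc3 (the apoptosis inducer PUMA). Cdkn1a averaged 154 ± 18.4 CPM in IAPP cells and 17.8 ± 2.48 CPM in control (SD, n = 3 each), a log2 fold change of 3.11 ± 0.17 (SE, edgeR adjusted p = 7.76e-06). Zmat3 rose by 1.26 ± 0.11 (SE, edgeR adjusted p = 0.000452). Bbc3 rose by 1.70 ± 0.18 (SE) and Btg2 by 1.60 ± 0.14, with edgeR adjusted p = 0.00117 and 0.000452. After urolithin B and IAPP, against IAPP alone, 11 of the 27 fell and 0 rose, where 0.422% of all genes fell, with a median of -0.59 against -0.02 for all genes. With the block 14 fell, against 2.73% of all genes. Replicates 2 and 3 alone gave 12 that fell, against 1.87% of all genes in that fit. Cdkn1a averaged 22.2 ± 3.44 CPM in urolithin B + IAPP cells and 154 ± 18.4 CPM in IAPP cells, a change of -2.80 ± 0.16 (SE, edgeR adjusted p = 2.06e-05). In the interaction 3 fell, and 12 with the block, which called 1.02% of all genes lower. Several of these genes were known from earlier results of these data when the list was written, so their count is not independent evidence.

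Of 18 genes for proteins that bind or modify Mdm2 and Mdm4, 17 were tested. With edgeR 1 rose after IAPP while 0 fell, where 0.547% of all genes rose. The gene that rose was Ccng1, cyclin G1, which brings a phosphatase to Mdm2 and is itself a p53 target and in both lists. It was at 1155 ± 267 CPM in IAPP and 240 ± 24.3 CPM in control cells (SD, n = 3 each). Pml, a nuclear body protein that can sequester Mdm2, had 1.16 ± 0.29 (SE, edgeR adjusted p = 0.103). Npm1, the nucleolar protein nucleophosmin, had -0.62 ± 0.18 (SE, edgeR adjusted p = 0.169), and Usp2, which removes ubiquitin from Mdm2, 0.88 ± 0.28 (SE, edgeR adjusted p = 0.220).

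With the replicate block 3 of the 17 rose after IAPP (Ccng1, Pml and Usp2) and 2 fell (Npm1 and Gnl3), where the block called 3.78% of all genes higher and 4.04% lower. Gnl3 is named because the count is small. The median of the list was -0.09, against 0.05 for all tested genes. Against IAPP alone, Ccng1 in urolithin B + IAPP cells fell by 1.96 on the log2 scale, and 16 did not pass, where 0.422% of all genes fell. With the block 2 fell, Ccng1 and Pml (edgeR adjusted p = 0.0139), against 2.73% of all genes. DESeq2 called 3 of the 17 after IAPP and 2 between urolithin B + IAPP and IAPP cells, and limma-voom 1 in each.

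Of the 13 other ubiquitin ligases known to act on p53, 11 were tested, and 0 passed after IAPP with edgeR, limma-voom or DESeq2. An unadjusted edgeR p under 0.05 was found for 1 of the 11, and for 1682 of all 16814 tested genes. The smallest p belonged to Wwp1, with a log2 fold change of 0.50 ± 0.14 (SE) that passed with the block alone (edgeR adjusted p = 0.168, and 0.0109 with the block). The block called 3.78% of all genes higher. Next came Trim28 (-0.28 ± 0.20), Siah1 (0.24 ± 0.19) and Rfwd2, the ligase COP1 (-0.30 ± 0.29), none of which passed. Between urolithin B + IAPP and IAPP cells 0 of 11 passed with edgeR, DESeq2, limma-voom or the block. An unadjusted edgeR p under 0.05 was found for 1 of the 11, and for 1430 of all tested genes. The median of the list was -0.05 after IAPP and 0.03 in urolithin B + IAPP against IAPP cells.

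The kinases above p53 and the targets of the Ppm1d phosphatase were 12 genes, all tested. After IAPP 0 passed with edgeR, DESeq2 or limma-voom, and 1 had an unadjusted p under 0.05, as had 1682 of all 16814 tested genes. Ung, the uracil-DNA glycosylase, had a change of -0.58 ± 0.18 (SE, edgeR adjusted p = 0.195). It passed with the block (edgeR adjusted p = 0.0114), which called 4.04% of all genes lower. Atr (0.26 ± 0.14), Prkdc (-0.15 ± 0.11) and Chek1 (0.33 ± 0.25), kinases of the DNA damage response, did not pass in either fit. Between urolithin B + IAPP and IAPP cells 0 of 12 passed with edgeR, DESeq2 or limma-voom. An unadjusted edgeR p under 0.05 was found for 3 of the 12, and for 1430 of all tested genes. With the block 1 of the 12 fell, Hipk2, a kinase that phosphorylates p53 (edgeR adjusted p = 0.0177), named because the count is small. The block called 2.73% of all genes lower. In the other 3 pairwise comparisons no gene of the 4 lists passed with edgeR or with the block. Outside the p53-induced list the interaction called 0 genes of these lists with edgeR. An unadjusted edgeR p under 0.05 was found for 2 partners, Ccng1 among them, and for Ung of the kinase and Ppm1d target list. The same held for 908 of all 16814 tested genes. With the block the interaction called Ccng1 alone among the partners, ligases and kinases, and Ccng1 is in the p53-induced list too.

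**Figure D4:**
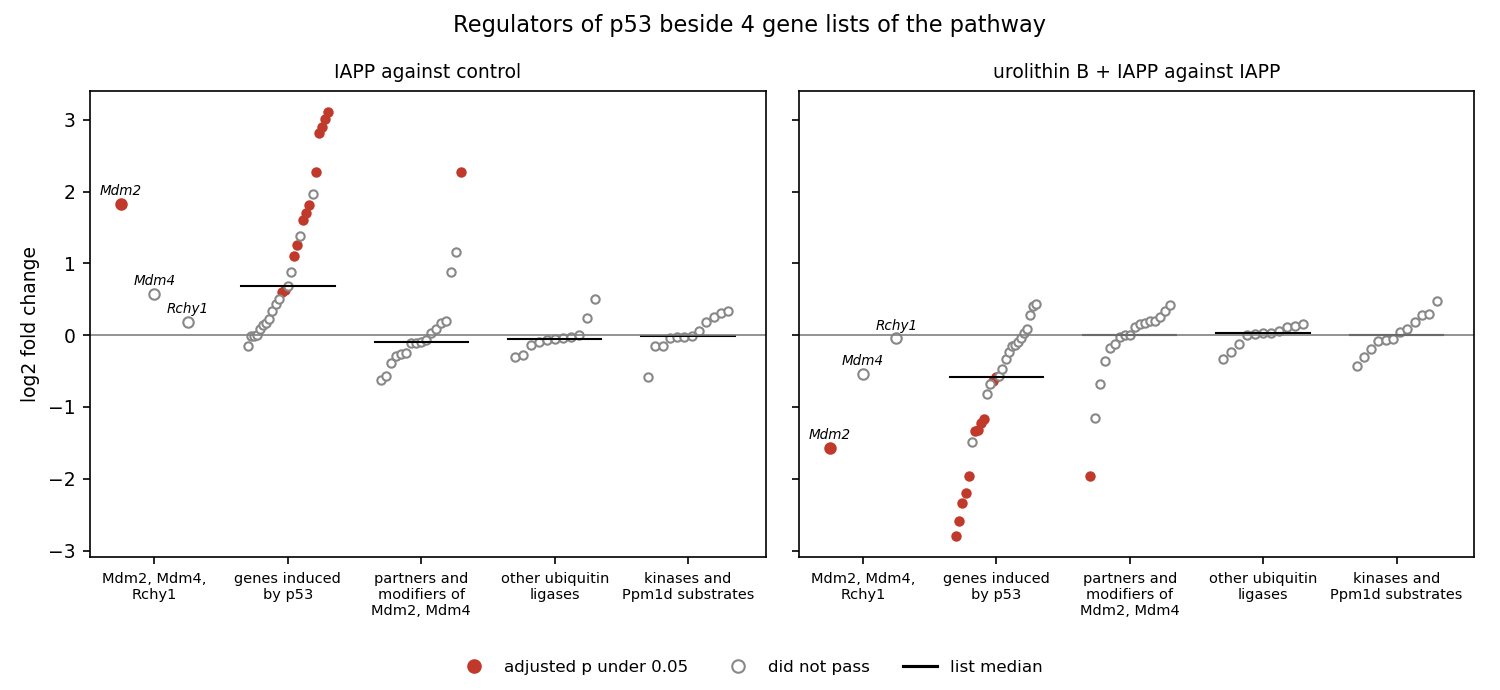
Log2 fold changes of Mdm2, Mdm4 and Rchy1 and of the tested genes of 4 pathway lists, in IAPP against control (left) and urolithin B + IAPP against IAPP (right), filled where the edgeR adjusted p is under 0.05 and with a bar at each list's median. Filled points are mostly p53-induced genes, 12 on the left and 11 on the right, and the 1 filled partner, Ccng1, is also one of them. Both panels use the same IAPP libraries.

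The genes most like each member over the 12 libraries were found by Pearson's r of log2 CPM, after the mean of each replicate number was subtracted, among 10733 named genes of at least 5 CPM. For Mdm2 they were Zmat3 (r = 0.989), Ccng1 (0.987), Fat1, an atypical cadherin (0.987), Cdkn1a (0.984) and Tp53inp1 (0.984), 4 of them p53-induced genes of the list. Without the subtraction the values were 0.954, 0.916, 0.827, 0.981 and 0.978 in that order. For Mdm4 they were Slc19a2, a thiamine transporter (0.967), Kif18b, a mitotic kinesin (0.966), Ddhd1, a phospholipase (0.965), Psrc1 (0.964) and Enc1 (0.963), and 0 were in the p53-induced list. That list does not hold every p53 target, so a gene outside it may still be one. For Rchy1 they were Igfbp3 (0.943), Slc27a4 (0.930), Cpeb1 (0.902), Bcl2l13 (0.896) and Serp2 (0.895).

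All genes share the same 12 libraries and treatments, and the gene at place 100 still had r = 0.914 with Mdm2, 0.879 with Mdm4 and 0.785 with Rchy1. Bcl2l13 and Rchy1 were alike only after the subtraction, with r = -0.136 without it. Cpeb1 and Rchy1 had 0.509 without it, and Psrc1 and Mdm4 0.686. The other genes named for Mdm4 and Rchy1 had 0.854 to 0.967 without it. Among the members Mdm2 and Mdm4 had r = 0.827 after the subtraction and 0.639 without it. Mdm4 and Rchy1 had 0.731 and 0.744, and Mdm2 and Rchy1 0.469 and 0.256.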

How the data were processed

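RNA came from a High Pure isolation kit and was turned into QuantSeq 3prime mRNA FWD libraries, per the labels' protocols. FastQC, Bowtie2 and SAMtools are listed without versions, per the submitters' processing notes. Which counter, build and annotation were used is not given in the sources at hand. The authors deposited 1 table of whole read counts per gene, without normalization. The transcript of p53 itself was not analysed here.

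All 12 libraries entered 1 edgeR 4.0.16 quasi-likelihood fit (R 4.3.3) with TMM factors. Genes were kept by filterByExpr, which left 16814, and 6 contrasts were tested with Benjamini-Hochberg adjustment at 0.05. DESeq2 1.42.0 and limma-voom (limma 3.58.1) were alternatives. Only the edgeR fit, with and without the replicate block, was first run on simulated data. An error is an SE for a fold change and an SD for a level. The labels call the libraries biological replicates but name no separate cultures, so a p-value reflects variation between these libraries alone.

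Deviations from group means correlated over genes at r = 0.44 to 0.89 in all 18 same-number pairs of libraries. In 36 pairs of different number r ran from -0.75 to 0.62, so the 2 ranges overlapped. The same-number likeness rested on replicate 1, since without it r ran from -0.06 to 0.02 over 12 pairs, which are not independent. The values thus show that replicate 1 differed, and not that replicates 2 and 3 were paired by number. Blocked values are printed where they change a call of a member or a count of a list. Replicates differed beyond sampling noise, with a chi-square per degree of freedom of 3.71 or more. Between replicates 2 and 3 it was 17.6 in urolithin B, where replicates 1 and 3 gave 17.7, and 3.71 to 5.27 in the other groups. Replicates 2 and 3 were thus not alike in every group.

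The members and lists were chosen with earlier results of these data known. Always named were the 4 members, for each list up to 4 genes with the smallest p after IAPP, and the 5 named genes of highest r for each member. The block combined with leaving out libraries was added after the data were seen, as were list counts in replicates 2 and 3 and ratios compared within replicate numbers. Of the 4 members, 4 matched RefSeq's GRCr8 table.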

Additional observations from a re-analysis of the deposited data

Results flagged for a closer look

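For Mdm2 the effect of IAPP differed between cells given urolithin B first and cells not given it, by the test of the difference itself. The interaction was -1.72 on the log2 scale. In urolithin B-treated cells the IAPP change was 0.11 ± 0.16, and in cells without urolithin B it was 1.83 ± 0.16 (SE, n = 3 libraries per group). The edgeR adjusted p of the interaction was 0.0348, and it did not pass in 10 of the 12 fits that left out 1 library.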

How the results depend on the processing

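Beside leaving out libraries, 167 of 177 values of the 3 tested members kept their direction and their side of the threshold under other scalings, filters, tools, groups in the fit, the replicate block, or replicates 2 and 3 alone. With the replicate block Mdm4 passed at 0.58 in IAPP against control and -0.55 in urolithin B + IAPP against IAPP. It also passed at 0.51 in the first with replicates 2 and 3 and the block, a setting chosen after the data were seen. The block changed no other call of a member. With library size alone Mdm2 missed the threshold at -1.64 in urolithin B + IAPP against IAPP and -1.78 in the interaction. The same scaling turned urolithin B + IAPP against control to -0.091 for Mdm4 and -0.0019 for Rchy1, and urolithin B + IAPP against urolithin B to -0.0039 for Mdm2. It shifted the median of all genes by -0.11 in the first of these. Replicates 2 and 3 put Rchy1 at 0.0019 in urolithin B + IAPP against IAPP, and at 0.0006 with the block. The cause was not tested.

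Over fits without 1 library, plain or with the block, Mdm4 ran from 0.41 to 0.68 in IAPP against control, -0.36 to 0.041 in urolithin B against control, -0.64 to -0.35 in urolithin B + IAPP against IAPP, -0.13 to 0.20 in urolithin B + IAPP against control, -0.0033 to 0.40 in urolithin B + IAPP against urolithin B and -0.59 to -0.16 in the interaction. Rchy1 ran from 0.0063 to 0.41 in IAPP against control, -0.37 to 0.023 in urolithin B against control, -0.20 to 0.16 in urolithin B + IAPP against IAPP, -0.038 to 0.37 in urolithin B + IAPP against control, 0.17 to 0.53 in urolithin B + IAPP against urolithin B and -0.064 to 0.37 in the interaction. Mdm2 ran from 0.040 to 0.30 in urolithin B against control, -0.033 to 0.22 in urolithin B + IAPP against urolithin B and -1.86 to -1.58 in the interaction. The log2 ratio of Mdm2 to Mdm4 ran from -0.42 to 0.10 in urolithin B + IAPP against urolithin B. That of Mdm2 to Rchy1 ran from -0.10 to 0.30 in urolithin B + IAPP against control and -0.46 to 0.0019 in urolithin B + IAPP against urolithin B.

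Counts of all genes called in IAPP against control were 142 with edgeR, 55 with library size alone, 464 with DESeq2, 90 with those groups alone, 754 with replicates 2 and 3, 1316 with the block and 42 to 154 without 1 library. In urolithin B + IAPP against IAPP they were 97, and 18, 288, 23, 418, 881 and 25 to 99 under the same settings. The interaction called 5, DESeq2 98, limma-voom 8, no filter or a filter of 1 CPM in 3 libraries 3, replicates 2 and 3 107, the block 274, and fits without 1 library 1 to 2. In urolithin B + IAPP against control edgeR called 0, DESeq2 4 and the block 12. Ppm1d, at 0 counts, had no value under any setting.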
